A study of Chlorella sorokiniana and Chromochloris zofingiensis with 12 samples.

Results

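Small RNA of the green algae Chlorella zofingiensis and Chlorella sorokiniana was compared in normal culture. The comparison holds the 6 normal libraries among the 12 of the series, chosen by their labels, with 3 libraries of C. zofingiensis strain ATCC30412 and 3 of C. sorokiniana strain NIES-2168. Both species were grown in Bold's Basal Medium at 27 °C, shaken at 30 rpm, under continuous light that the labels give as about 10 µmol photons. The other 6 libraries came from cultures that were moved at mid log phase to light of 100 µmol photons with 2% glucose, and they are used here only to ask whether a species difference recurred. Nothing in the labels says that the 3 libraries of a group came from separate cultures, so the p-values measure the spread between these libraries. Each species is represented by 1 strain, so strain and species cannot be told apart.

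Small RNA libraries hold short RNAs cut by enzymes for regulation, such as microRNAs (miRNAs), together with pieces of longer RNAs. Transfer RNAs (tRNAs) and ribosomal RNAs (rRNAs) are abundant and give many such pieces, often from their ends. Small nucleolar RNAs (snoRNAs) guide the modification of rRNA, and the U RNAs of the spliceosome remove introns. Green algae have miRNAs of their own, few of which resemble those of land plants.

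The data are of 2 kinds. The tag table counts reads per exact sequence (tag), and every normal library lists exactly 100 tags, so a tag at 0 was outside that list. Listed reads came to 259413 to 431955 in C. zofingiensis and 46518 to 406492 in C. sorokiniana, and the smallest listed tag held 0.146% to 0.147% of them in C. zofingiensis and 0.0999% to 0.1099% in C. sorokiniana. The annotation sheets count reads per Arabidopsis thaliana RNA entry, with 14601 to 106200 counts in C. zofingiensis and 2718 to 19408 in C. sorokiniana, the lowest in replicate 3. No pair of replicates agreed within sampling noise, since the chi-square per degree of freedom was 26.6 or more for tags and 3.36 or more for entries. All 292 tags of the 12 libraries ended in A, and this last base is part of every length given here. Whether it was added in library preparation or data handling was not tested.

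Of 212 tags listed in the 6 libraries, 120 were listed in C. zofingiensis and 129 in C. sorokiniana. The species shared 37 tags, 30.8% of the C. zofingiensis tags and 28.7% of the C. sorokiniana tags. A library of one species shared 28 to 34 of its 100 tags with a library of the other. Pairs within C. zofingiensis shared 84 to 92 tags and pairs within C. sorokiniana 78 to 84. The shared tags nonetheless held most of the reads, 62.2% ± 1.44 of listed reads in C. zofingiensis and 73.4% ± 3.65 in C. sorokiniana (SD, n = 3 each). The share was lower in all 3 C. zofingiensis libraries (exact two-sided permutation test, p = 0.1, the smallest that 3 against 3 can give).

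Many tags are the same stretch of RNA read with other ends. Tags that share 12 bases, the last base left out, were therefore joined, which gave 52 groups, 8 with tags of both species, 20 of C. zofingiensis alone and 24 of C. sorokiniana alone. The sequences below are the tags of the largest groups, as listed in the tag table, written 5′ to 3′ with T for U. They are shown because the tags carry no other name. In groups A to C the capitals mark the 8 bases by which the tags of a group were lined up.

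A1: tgtcTGCCTCAGcgtcggta
A2: gtcTGCCTCAGcgtcggta
A3: catgtcTGCCTCAGcgtcggta
A4: cTGCCTCAGcgtcggta
A5: atgtcTGCCTCAGcgtcggta
A6: TGCCTCAGcgtcggta
A7: tcTGCCTCAGcgtcggta
B1: TCGACCTGagctcaggcaa
B2: TCGACCTGagctcaggca
B4: tTCGACCTGagctcaggcaa
C1: aACTCTCAAcaacggataa
C2: aACTCTCAAcaacgga
C3: aACTCTCAAcaacggatatca

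The next tag, D1, leads the fourth group that both species share. Without its last base it has the letters of a primer in wide use for the start of 18S rRNA.

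D1: acctggttgatcctgcca

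Tags E1 to G1 lead the largest groups of C. zofingiensis alone, and H1 and J1 lead those of C. sorokiniana alone. F1 and J1 are shown together because their 25 bases differ only at the capitals.

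E1: cgcctaccgtcgtgcttcggca
E2: cgcctaccgtcgtgcttcgga
E3: cgcctaccgtcgtgcttcggcta
G1: taaagaccaattgaca
H1: gaccgaatgattttgaca
F1: tcagccCGtgttcGGaAgatttgta
J1: tcagccGTtgttcTTaCgatttgta

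No algal genome was used, so the RNAs that gave the tags were not identified, and pieces of rRNA were not told apart from other small RNAs. A further group of C. sorokiniana alone, group I, is described without its letters, because rRNA of the alga's plastid and of bacteria could not be told apart there.

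Group A was the largest in both species and took a higher share in C. zofingiensis. Its 25 tags, 14 of them shared, held 50.2, 47.9 and 51.1% of listed reads in C. zofingiensis, against 36.7, 33.5 and 39.0% in C. sorokiniana. Groups B and C took a lower share in C. zofingiensis. Group B held 12.7, 11.97 and 9.22% in C. zofingiensis, against 21.7, 18.5 and 18.5% in C. sorokiniana. Group C held 5.70, 6.38 and 6.50% in C. zofingiensis, against 14.3, 18.9 and 21.2% in C. sorokiniana. In none of these 3 groups did the libraries of the species overlap. Counts were tested with edgeR's quasi-likelihood test on library totals, with Benjamini-Hochberg adjusted p-values and calls below 0.05. Group A rose by a log2 fold change of 0.45 ± 0.09 (SE, edgeR adjusted p = 0.000848), group B fell by 0.79 ± 0.16 on the log2 scale (edgeR adjusted p = 0.00102) and group C fell by 1.55 ± 0.18 (edgeR adjusted p = 2.14e-05). Of 32 groups tested 27 were called, 84.4%, with 40.6% higher and 43.8% lower. These include groups listed in one species alone, which passed the filter only through that species. The share is therefore not a background for shared groups. Of the 8 groups with tags of both species, only A, B and C were called. With the replicate numbers as a block 17 of the 32 were called, 53.1%, among them groups A, B and C. With TMM factors, which scale the libraries to their common tags, group B fell by only 0.23 and was no longer called (edgeR adjusted p = 0.314), while groups A (1.03) and C (-1.001) kept their direction and their call.

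Group D did not pass the test. It held 2.01, 2.08 and 1.94% of listed reads in C. zofingiensis, against 1.73, 2.16 and 2.51% in C. sorokiniana. The species overlapped, and the log2 change was -0.08 ± 0.24 (SE, edgeR adjusted p = 0.755), or 0.46 with TMM factors (edgeR adjusted p = 0.216).

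Several large groups were listed in one species and not in the other. Group E, with 16 tags, held 11.9, 15.7 and 18.7% of listed reads in C. zofingiensis and was not listed in C. sorokiniana. It was the second largest group of C. zofingiensis. Groups F and G held 4.60% ± 0.264 and 4.04% ± 0.467 in C. zofingiensis (SD, n = 3 each), again with no listed tag in C. sorokiniana. In the other direction, group H held no listed reads in C. zofingiensis and 5.84, 8.18 and 4.91% in C. sorokiniana. Group I, whose leading tag has 16 bases, was likewise unlisted in C. zofingiensis and held 7.61, 7.03 and 3.93% in C. sorokiniana. Group J was unlisted in C. zofingiensis and held 1.52, 3.74 and 3.54% in C. sorokiniana.

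**Figure D1:**
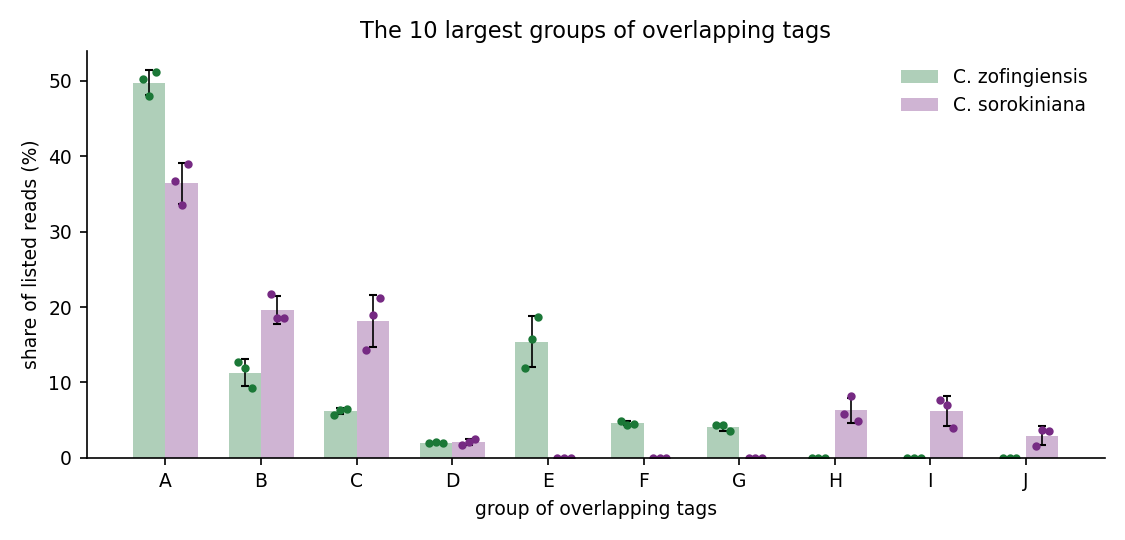
Share of listed reads (percent, vertical axis) in the 10 largest groups of overlapping tags (horizontal axis), with C. zofingiensis left of C. sorokiniana. Bars are means of 3 libraries, error bars SD and points libraries. Groups A to D are shared, E to G stand at 0 in C. sorokiniana and H to J at 0 in C. zofingiensis.

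For single tags of this kind a bound can be given against the smallest listed share of the other species. E1 held 3.51, 5.61 and 5.21% in C. zofingiensis and was unlisted in C. sorokiniana, so its share was at least 45.1-fold higher in C. zofingiensis. The bounds for E2 and E3 were at least 35.4-fold and 20.5-fold higher. G1, with 2.44, 2.31 and 1.69% in C. zofingiensis and no listing in C. sorokiniana, was at least 20.3-fold higher. The largest bound in the other direction belonged to the leading tag of group I, whose share in C. sorokiniana was at least 23.3-fold that in C. zofingiensis. H1 was unlisted in C. zofingiensis and held 1.70, 1.59 and 0.896% in C. sorokiniana, at least 9.53-fold more. In all, 55 tags were listed in every C. zofingiensis normal library and in no C. sorokiniana normal library, with bounds of 1.60-fold to 45.1-fold. For C. sorokiniana there were 42 such tags, and 39 of them had a bound above 1. None of these 97 tags was listed in a stress library of the other species either. They entered the test only through the species that lists them, so their calls are not counted as results.

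A tag listed in one species alone can resemble a tag of the other, as F1 and J1 do. They have the same length and differ by 5 substitutions, written from J1 to F1 and counted from the 5′ end as G7C, T8G, T14G, T15G and C17A. F1 held 1.91, 1.36 and 1.51% of listed reads in C. zofingiensis, and J1 held 0.822, 1.92 and 1.86% in C. sorokiniana. The levels of the pair overlapped. Shorter tags of groups F and J paired in the same way, the 24-base tags with 0.877% ± 0.122 in C. zofingiensis and 0.508% ± 0.186 in C. sorokiniana and the 23-base tags with 0.618% ± 0.0801 and 0.333% ± 0.1004 in the same order of species (SD, n = 3 each). Of the 83 tags listed in C. zofingiensis alone, 9 had such a C. sorokiniana tag of equal length with at most 6 mismatches and at most 25% of its bases changed. The 9 are not separate cases, since they include groups F and J at several lengths and tags of groups A and C. Whether the paired tags come from the same RNA in both species was not tested. Counting every tag that has a stretch of 12 bases in common with a tag of the other species, the shared portion was 70.5% ± 1.78 of listed reads in C. zofingiensis and 78.2% ± 4.34 in C. sorokiniana, without overlap (SD, n = 3 each, exact permutation test, p = 0.1). With a stretch of 16 bases it was 66.0% ± 1.40 in C. zofingiensis and 68.7% ± 4.29 in C. sorokiniana, and the species overlapped (exact permutation test, p = 0.4).

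The 27 tags listed in all 6 libraries allow a direct comparison of levels. Of these, 5 were called higher and 12 lower in C. zofingiensis, and 10 were not called. Fitted alone, the 27 gave 17 calls, 63.0%, with 18.5% higher and 44.4% lower. Over all 133 tags tested, including those of one species, 114 were called, 85.7%, with 45.1% higher and 40.6% lower. With the replicate block 52 of the 133 were called, 39.1%. Among the 27, the block gave 8 higher and 10 lower. The libraries of the species did not overlap for 18 of the 27, with C. zofingiensis above in 7 and below in 11. Over all tags tested this share was 88.7%. It includes 55 tags of C. zofingiensis alone and 42 of C. sorokiniana alone, which cannot overlap, so it is not a background for shared tags.

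All 5 tags called higher belong to group A. A1, the commonest tag of both species, held 25.2, 22.1 and 22.3% of listed reads in C. zofingiensis, against 16.4, 15.2 and 17.3% in C. sorokiniana. All C. zofingiensis libraries lay above all C. sorokiniana libraries, with a log2 fold change of 0.51 ± 0.08 (SE, edgeR adjusted p = 0.000515). A2, which lacks the first base of A1, held 12.7, 12.7 and 12.3% in C. zofingiensis, against 8.61, 8.92 and 9.56% in C. sorokiniana. Its log2 fold change of 0.47 ± 0.07 was close to that of A1. A3, with 2 more bases at the 5′ end than A1, averaged 4.31% ± 0.188 in C. zofingiensis and 2.42% ± 0.358 in C. sorokiniana (SD, n = 3 each), and its log2 fold change was 0.83 ± 0.14. A6 and A7 rose by 0.97 ± 0.17 and 0.78 ± 0.19 on the log2 scale.

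Tags of group A did not all move together. A5, with 1 base more than A1 at the 5′ end, held 1.63, 1.46 and 1.58% in C. zofingiensis, against 2.94, 2.46 and 2.53% in C. sorokiniana. It was lower in all 3 C. zofingiensis libraries and fell by 0.77 ± 0.14 on the log2 scale (SE, edgeR adjusted p = 0.00123). A4 held 2.14, 2.40 and 2.59% in C. zofingiensis, against 2.73, 2.47 and 2.42% in C. sorokiniana, and the species overlapped (log2 -0.10 ± 0.13, edgeR adjusted p = 0.526).

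Most tags called lower belong to groups B and C. B1 held 1.78, 1.86 and 1.33% in C. zofingiensis, against 8.17, 6.95 and 6.18% in C. sorokiniana. B2 held 1.89, 1.91 and 1.32% in C. zofingiensis, against 7.42, 6.86 and 6.81% in C. sorokiniana. The C. zofingiensis libraries lay far below those of C. sorokiniana in both, and B1 fell by 2.10 ± 0.17 and B2 by 2.04 ± 0.16 on the log2 scale (SE, edgeR adjusted p = 1.29e-05 and 1.15e-05). C1 held 1.499, 1.57 and 1.72% in C. zofingiensis, against 6.68, 5.61 and 6.82% in C. sorokiniana, and fell by 2.00 ± 0.12 (edgeR adjusted p = 6.19e-06). C2 averaged 0.900% ± 0.0848 in C. zofingiensis and 4.48% ± 1.69 in C. sorokiniana (SD, n = 3 each) and fell by 2.32 ± 0.31. C3, from the same start but ending farther 3′, held 0.747, 0.886 and 0.819% in C. zofingiensis, against 0.804, 0.797 and 0.884% in C. sorokiniana. The species overlapped for C3, whose log2 change was -0.02 ± 0.17 (edgeR adjusted p = 0.927). The smallest falls were the least stable. The 18-base tag that begins like C1 fell by 0.79 on the log2 scale, the 24-base tag that begins like B1 by 0.76 and a 17-base tag of group D by 0.68. With TMM factors edgeR no longer called these 3 (adjusted p = 0.169, 0.0834 and 0.231). With 1 library left out the adjusted p of edgeR reached 0.111 for the 18-base tag and 0.117 for the 17-base tag. With the replicate block the 17-base tag (edgeR adjusted p = 0.152) and the 22-base tag that begins like B1 (0.0505) were not called. The block added calls for an 18-base tag of group C that begins 1 base after C1 (edgeR adjusted p = 0.0164) and for variants of A1 and A2 whose last bases read ggca (0.00869 and 0.0157).

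The smaller fall of group B as a whole than of B1 and B2 goes with a difference in where its tags begin. In C. sorokiniana every listed read of group B began at the first base of B1. In C. zofingiensis 44.5, 46.1 and 46.7% began there, and 39.1, 39.4 and 39.8% began 1 base earlier, at a T, as in B4. B4 held 1.87, 1.84 and 1.31% of listed reads in C. zofingiensis, close to the 1.78, 1.86 and 1.33% of B1 in the same libraries, and was unlisted in C. sorokiniana, so it was at least 15.8-fold higher in C. zofingiensis. Starts 2 to 5 bases before that of B1 held the remaining reads of the group in C. zofingiensis. The libraries of the species overlapped at the 2 commonest 3′ ends. The commonest, the end of B2, held 37.4% ± 1.62 of the group in C. zofingiensis and 38.3% ± 1.77 in C. sorokiniana (SD, n = 3 each, exact permutation test, p = 0.6). The next, the end of B1, held 35.8% ± 1.69 and 37.2% ± 2.56 in the same order of species. Minor ends differed without overlap, such as the end 2 bases past that of B1, with 3.33% ± 0.210 in C. zofingiensis and 7.12% ± 0.157 in C. sorokiniana, and the end 1 base before that of B2, with 9.16% ± 0.599 and 5.28% ± 0.927 in the same order (exact permutation test, p = 0.1 each).

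Group C also differed in its ends. Reads beginning at the first base of C1 were 72.1, 69.2 and 73.6% of the group in C. zofingiensis and 81.1, 79.2 and 80.0% in C. sorokiniana. Reads beginning 1 base later were 17.1, 20.97 and 20.3% in C. zofingiensis and 1.79, 1.87 and 1.77% in C. sorokiniana. Reads beginning 5 bases before C1 were 2.76, 2.48 and 0% in C. zofingiensis, against 15.3, 15.4 and 14.97% in C. sorokiniana, and reads beginning 6 bases before C1 were 8.10, 7.35 and 6.03% in C. zofingiensis and unlisted in C. sorokiniana. None of these sets of libraries overlapped between the species. The early starts differ in sequence, since their tags begin aatgac or atgac in C. zofingiensis and aagac in C. sorokiniana. Positions counted back from C1 therefore need not be the same site in both species. At the 3′ side, the end of C3 held 17.8% ± 1.43 of the group in C. zofingiensis and 4.67% ± 0.821 in C. sorokiniana (SD, n = 3 each), and the end of C1 held 33.7% ± 0.978 and 42.1% ± 9.62 in the same order.

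Most reads of group A began at the same bases in both species, with smaller differences in share. The first base of A1 began 50.5% ± 2.20 of the group's reads in C. zofingiensis and 48.2% ± 1.08 in C. sorokiniana, and the first base of A2 began 26.8% ± 0.865 and 26.6% ± 1.05 in the same order (SD, n = 3 each). The start of A5 held 3.12% ± 0.112 in C. zofingiensis and 7.63% ± 0.951 in C. sorokiniana. Nearly all reads of the group ended at the same base, 99.6% ± 0.0322 in C. zofingiensis and 99.9% ± 0.216 in C. sorokiniana. Each of these shares counts only tags inside a library's list of 100, so rarer ends are missed.

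**Figure D2:**
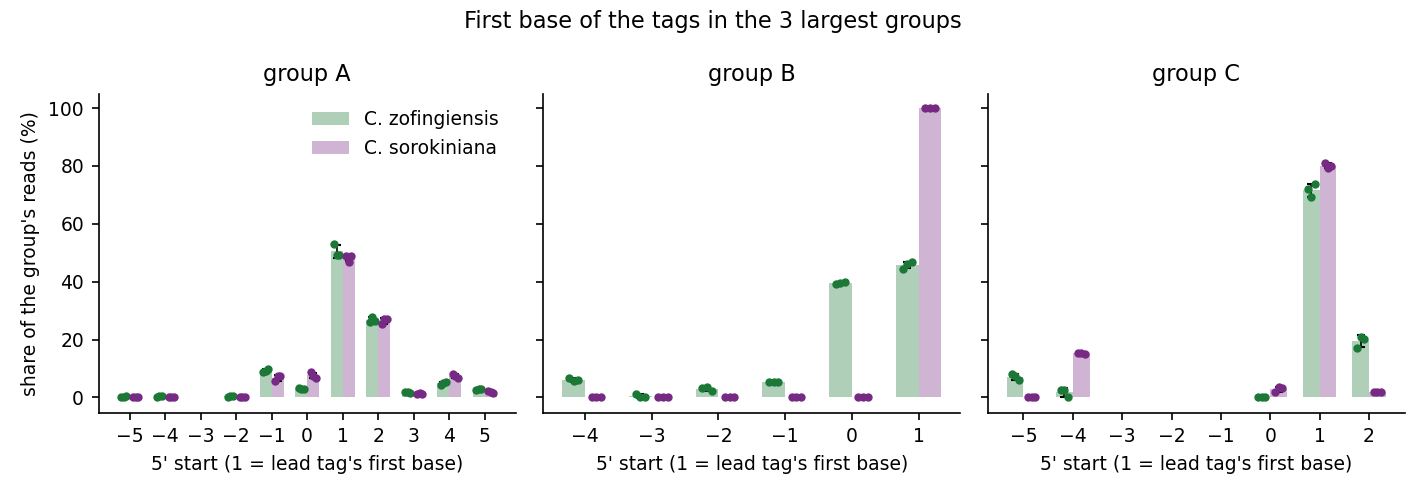
Share of each group's reads (percent, vertical axis) by the position at which the tag begins (horizontal axis, 1 being the first base of A1, B1 or C1) in groups A, B and C, with C. zofingiensis left of C. sorokiniana. Bars are means of 3 libraries, error bars SD and points libraries. In group B all C. sorokiniana reads begin at 1, while 39.4% of C. zofingiensis reads begin 1 base earlier. In group C the tags with the earliest starts differ in sequence between the species, so these positions need not be the same site.

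Listed reads were longer in C. zofingiensis. Tags of 20 to 24 bases held 54.4, 53.8 and 56.7% of listed reads in C. zofingiensis, against 38.2, 36.6 and 37.6% in C. sorokiniana. Tags of at most 18 bases held 20.3, 21.4 and 18.9% in C. zofingiensis, against 30.8, 35.9 and 33.0% in C. sorokiniana. The libraries of the species did not overlap in either class, and each gave p = 0.1 in an exact two-sided permutation test, the smallest possible, or 0.12 after adjustment over 6 length measures. The mean length was 19.9 ± 0.118 bases in C. zofingiensis and 19.3 ± 0.0268 bases in C. sorokiniana. Single lengths differed in both directions. Tags of 19 bases, the length of A2, B1 and C1, held 21.002% ± 0.785 in C. zofingiensis and 26.4% ± 2.40 in C. sorokiniana. Tags of 20 bases, the length of A1, held 29.1% ± 1.54 in C. zofingiensis and 20.5% ± 1.39 in C. sorokiniana. Tags of 22 bases, the length of A3 and E1, held 11.4% ± 1.15 in C. zofingiensis and 3.90% ± 0.300 in C. sorokiniana. Tags of 18 bases, the length of B2 and H1, held 7.09% ± 0.375 in C. zofingiensis and 13.8% ± 0.197 in C. sorokiniana. Counted as distinct tags rather than reads, the mean length was 19.7 bases in both species, with a difference of -0.0133 bases.

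**Figure D3:**
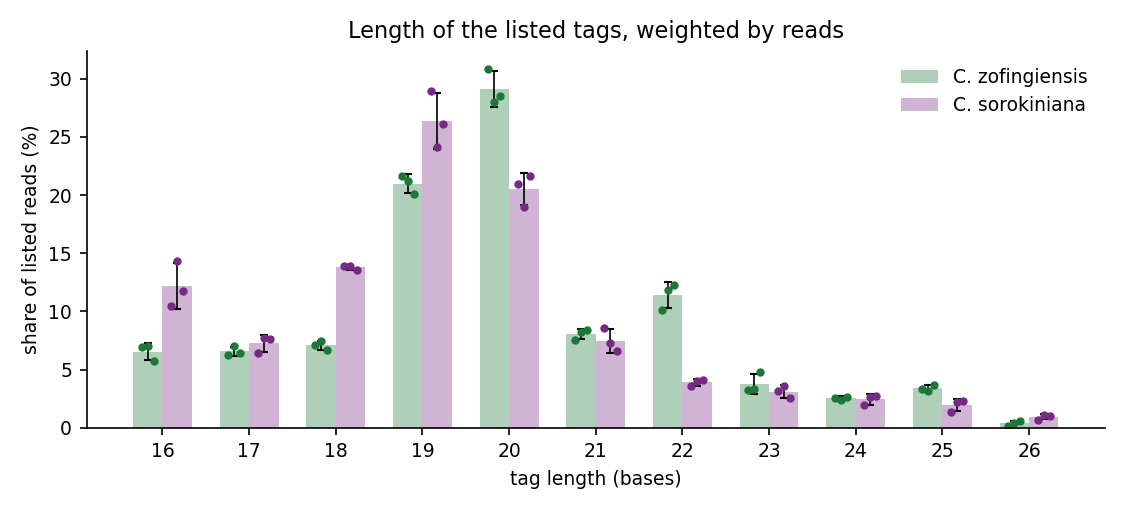
Share of listed reads (percent, vertical axis) by tag length in bases (horizontal axis), with C. zofingiensis left of C. sorokiniana at each length. Bars are means of 3 libraries, error bars SD and points libraries. The highest bar is at 20 bases in C. zofingiensis (29.1%) and at 19 bases in C. sorokiniana (26.4%).

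The base at the 5′ end, which Argonaute proteins of land plants use in sorting small RNAs, also differed. Reads beginning with A were 13.3, 13.5 and 13.0% in C. zofingiensis, against 25.6, 30.6 and 30.7% in C. sorokiniana. Reads beginning with C were 24.2, 28.5 and 31.2% in C. zofingiensis, against 13.7, 13.2 and 11.7% in C. sorokiniana. Reads beginning with T were the most common in both species, at 43.8% ± 3.52 in C. zofingiensis and 45.9% ± 2.47 in C. sorokiniana, and overlapped. Without group A they were 32.7% ± 5.26 in C. zofingiensis and 42.7% ± 3.31 in C. sorokiniana, lower in all 3 C. zofingiensis libraries. C1 begins with A, and E1 begins with C. The GC share of the listed bases was 57.0, 57.5 and 58.1% in C. zofingiensis, against 52.7, 51.1 and 52.2% in C. sorokiniana. The differences in A, C and GC each gave p = 0.1 in the exact permutation test and 0.125 after adjustment over 5 measures. Counted as distinct tags, 29.0 ± 2.00 of the 100 began with A in C. zofingiensis and 28.3 ± 3.21 in C. sorokiniana, which overlapped, while 30.0 began with T in C. zofingiensis and 35.7 ± 2.08 in C. sorokiniana, which did not.

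The annotation sheets give the reads that matched Arabidopsis entries. Of 711 entries with a count in the 6 libraries, 628 were found in C. zofingiensis and 385 in C. sorokiniana, and 302 in both, which is 48.1% of the C. zofingiensis entries and 78.4% of the C. sorokiniana entries. Annotated counts were 14601 to 106200 in C. zofingiensis and 2718 to 19408 in C. sorokiniana. The part of this depth in which entries were found was not tested. Entries with similar sequence share reads, and the 711 entries held only 230 distinct patterns of counts. The sequence that the sheets give as commonest for an entry was often short. Entries whose commonest sequence had fewer than 16 bases held 68.8, 91.9 and 84.9% of annotated counts in C. zofingiensis and 52.0, 90.8 and 96.3% in C. sorokiniana. An entry's name is therefore given here as a label of the sheet, not as proof that the alga makes that RNA.

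Entries of tRNA held most annotated counts, at 77.5, 95.7 and 91.8% in C. zofingiensis and 81.3, 86.6 and 79.8% in C. sorokiniana, and the species overlapped. Entries of snoRNA held 9.37% ± 7.70 in C. zofingiensis and 6.35% ± 1.53 in C. sorokiniana (SD, n = 3 each), and those of rRNA 0.263% ± 0.273 and 0.518% ± 0.309 in the same order. The rRNA entries named here are all 5S. Their class share does not measure pieces of rRNA among the listed tags, which were not identified. The miRNA entries were lower in C. zofingiensis. Precursor miRNA entries held 3.05, 0.414 and 1.53% in C. zofingiensis, against 6.07, 4.42 and 8.02% in C. sorokiniana. Mature miRNA entries held 0.692, 0.0772 and 0.240% in C. zofingiensis, against 3.65, 3.295 and 6.18% in C. sorokiniana. Neither miRNA class overlapped between the species, with p = 0.1 in the exact two-sided permutation test and 0.25 after adjustment over 5 classes. These shares depend on how entries that share reads are counted. With identical counts entered once, tRNA held 78.5% ± 15.4 in C. zofingiensis and 55.4% ± 6.66 in C. sorokiniana, still with overlap (exact permutation test, p = 0.2). Precursor miRNA entries then held 4.67% ± 3.20 and 14.8% ± 3.11 in the same order (SD, n = 3 each). Mature miRNA entries held 1.10% ± 0.939 and 14.2% ± 3.20.

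**Figure D4:**
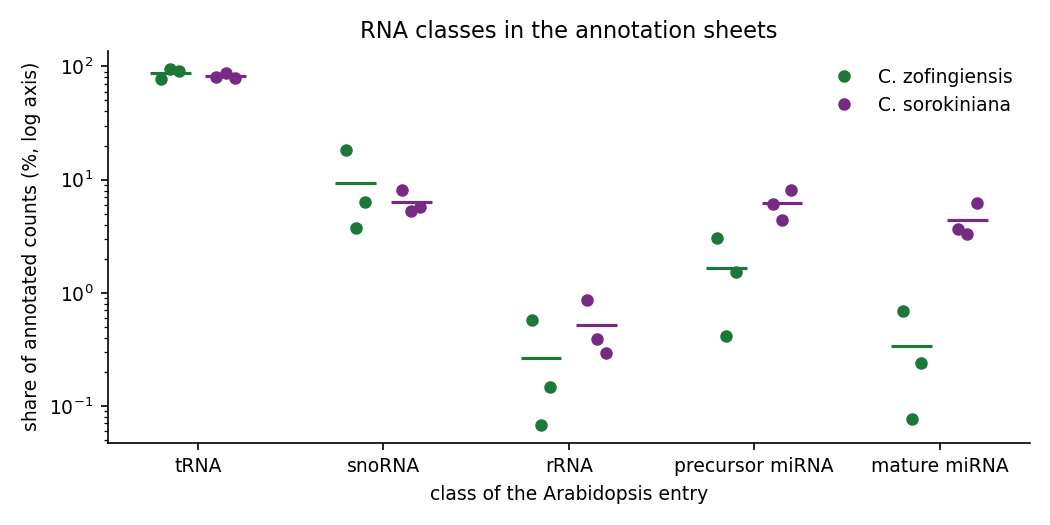
Share of annotated counts (percent, log axis) by class of Arabidopsis entry (horizontal axis), with C. zofingiensis left of C. sorokiniana. Points are libraries and lines the means of 3. All C. zofingiensis points lie below all C. sorokiniana points for precursor and mature miRNA entries, and the species overlap for tRNA, snoRNA and rRNA entries.

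Of 141 entries tested 77 were called, 54.6%, with 35 higher (24.8%) and 42 lower (29.8%) in C. zofingiensis. With the replicate block 64 were called, 45.4%. Of the 141, 18 had no count in C. sorokiniana and 8 none in C. zofingiensis. Among the 115 tested entries found in both species, fitted alone, 49 were called, 42.6%, with 17 higher (14.8%) and 32 lower (27.8%), and their median log2 change was 0.05. Taken once per pattern of counts, 7 of 42 were higher and 8 lower. The libraries of the species did not overlap for 69.5% of the 141, which include the entries counted in one species alone.

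The miRNA difference rested on few entries. Entries counted in one species alone pass the filter only through that species, so counts of calls are given for entries of both. Among those, the 1 tested entry of a conserved land plant miRNA family was lower in C. zofingiensis, as were 4 of 5 entries of miRNAs with 4-digit names, against a background of 27.8%. The 5 entries hold only 3 patterns of counts, 2 of them lower. The largest difference was that of ath-miR-169m, of a family that in Arabidopsis represses subunits of the transcription factor NF-Y. It had 0 counts in each C. zofingiensis library and 389, 353 and 130 counts in C. sorokiniana, so its share in C. sorokiniana was at least 317-fold that in C. zofingiensis, taking 3 counts per library as the floor. With 1 library left out this bound ran from 229-fold without C. sorokiniana replicate 3 to 714-fold without C. zofingiensis replicate 1, whose floor is the highest of its species. No p is given for entries at 0 in one species. It held 3.08% ± 1.49 of all annotated counts in C. sorokiniana, and was most of the mature miRNA share there. In the stress libraries it again had 0 counts in C. zofingiensis and had 357, 335 and 353 in C. sorokiniana. The precursor entry of the same name had 4, 2 and 0 counts in C. zofingiensis and the same 389, 353 and 130 in C. sorokiniana. The sequence printed next is the commonest counted to both in C. sorokiniana, and its 15 bases lie in no listed tag. Whether these bases resemble mature miR169 of Arabidopsis was not tested. The name is the label of the sheet, and a difference in miR169 itself is not shown.

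miR-169m: tgttactttgagtaa

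The entry ath-miR-399b, of a family that acts in phosphate supply in Arabidopsis, had 0 counts in each C. zofingiensis library and 29, 13 and 6 in C. sorokiniana, at least 15.8-fold more there (11.6-fold to 35.6-fold with 1 library left out, the highest without C. zofingiensis replicate 1). The precursor entry ath-mir-396a, of a family that targets growth-regulating factors in Arabidopsis, had 0 counts in each C. zofingiensis library and 76, 29 and 9 in C. sorokiniana. Without its last base, the commonest sequence of ath-mir-396a lies inside the leading tag of group I, which was likewise unlisted in C. zofingiensis. Its part in the result was not tested. The entry ath-miR-5656 had 36, 26 and 35 counts in C. zofingiensis, against 260, 76 and 29 in C. sorokiniana, or 0.113% ± 0.118 and 0.978% ± 0.413 of annotated counts in the same order (SD, n = 3 each). It fell by 3.16 ± 1.31 on the log2 scale (edgeR adjusted p = 0.0305), and its adjusted p reached up to 0.190 when 1 library was left out. The entry ath-miR-5638b fell by 2.59 ± 1.00 (edgeR adjusted p = 0.0190), which was 0.0773 with the replicate block and up to 0.136 with 1 library left out.

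Other miRNA entries did not pass the test or were too rare for it. The precursor entry ath-mir-5652 had 188, 218 and 517 counts in C. zofingiensis, against 206, 55 and 21 in C. sorokiniana. Per annotated count the species overlapped, with a log2 change of 0.17 ± 0.96 (edgeR adjusted p = 0.904). Its commonest sequence in both species has 10 bases and lies inside a listed variant of A1. Entries whose commonest sequence, without its last base, lies inside a listed tag held 59.2% of precursor miRNA counts in C. zofingiensis and 25.1% in C. sorokiniana. These are all counts of such entries, not only those of the commonest sequence. No mature miRNA entry was of this kind. By list, 31 entries that carry the names of conserved land plant miRNA families were found, 5 in both species, 15 in C. zofingiensis alone and 11 in C. sorokiniana alone. Over all 711 entries, 302 were found in both, 326 in C. zofingiensis alone and 83 in C. sorokiniana alone. The list held 0.217% ± 0.219 of annotated counts in C. zofingiensis and 7.26% ± 3.12 in C. sorokiniana, where miR-169m and its precursor entry count the same reads and each hold 3.08%. The 40 miRNA entries with 4-digit names held 1.32% ± 0.957 in C. zofingiensis and 3.14% ± 1.13 in C. sorokiniana, with a median log2 change of -2.59 over the 5 tested.

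Entries of tRNA moved in both directions. Of 22 entries of 72 bases or fewer found in both species and tested, 8 were higher and none lower in C. zofingiensis, with a median log2 change of 0.65, against a background of 14.8% higher and 27.8% lower. The 22 hold 11 patterns of counts, 2 of them higher. Over all tested entries of both species, 7 of 42 patterns were higher and 8 lower. All 203 entries of 72 bases or fewer, tested or not, held 10.5% ± 1.63 of annotated counts in C. zofingiensis and 2.75% ± 1.27 in C. sorokiniana. Of these, 126 were found in C. zofingiensis alone and 10 in C. sorokiniana alone. Of 53 tested entries of 73 bases, 8 were higher and 24 lower. They hold 11 patterns of counts, 4 of them higher and 3 lower, against the same backgrounds of entries and of patterns. All 89 entries of 73 bases, tested or not, held 74.4% ± 13.3 in C. zofingiensis and 78.5% ± 2.64 in C. sorokiniana. Of 12 entries of 74 bases or more found in both species, none was called at an adjusted p below 0.05 by edgeR in the fit on entries of both species, while 2 were lower in the fit on all entries. Reads that map to several tRNA entries are counted at each, so these are counts of entries and not of separate RNAs.

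Single tRNA entries showed how wide the differences were. The 71-base entry at chr5:17495541-17495611 of the Arabidopsis build had 154 to 255 counts in C. zofingiensis and 0 in each C. sorokiniana library, at least 14.9-fold higher. Its shares of annotated counts in C. zofingiensis were 1.75, 0.147 and 0.298%, and without replicate 1 of C. zofingiensis the bound was 4.55-fold, while it was 40.3-fold without C. sorokiniana replicate 3. The 72-base entry at chr2:12339751-12339822 had 16, 2211 and 345 counts in C. zofingiensis and 0 in each C. sorokiniana library, at least 19.5-fold higher. Its C. zofingiensis libraries differed widely, with shares of 0.1096, 2.08 and 0.667%, and the bound was 7.95-fold without replicate 2 of C. zofingiensis and 52.5-fold without C. sorokiniana replicate 3. The 73-base entry at chr5:3324702-3324774 had 56 to 3060 counts in C. zofingiensis, against 10, 6 and 0 in C. sorokiniana (log2 fold change 5.34 ± 1.17, edgeR adjusted p = 6.61e-05). The 73-base entry at chr1:2846536-2846608 had 146, 2251 and 978 counts in C. zofingiensis, against 696, 525 and 154 in C. sorokiniana. That is 1.67% ± 0.592 of annotated counts in C. zofingiensis and 4.30% ± 1.18 in C. sorokiniana, and the entry fell by 1.36 ± 0.38 on the log2 scale (SE, edgeR adjusted p = 0.000830). The entry at chr2:706796-706868, which with 8 others of the same counts was the commonest of C. zofingiensis, held 2.74% ± 0.280 there and 1.86% ± 0.653 in C. sorokiniana and did not pass the test (log2 fold change 0.55 ± 0.45, edgeR adjusted p = 0.276).

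Entries of snoRNA and spliceosomal RNA differed one by one. U6 is the RNA at the catalytic core of the spliceosome. The U6 entry at chr5:18787389-18787491 had 136, 115 and 74 counts in C. zofingiensis and 0 in each C. sorokiniana library, at least 8.07-fold higher. These counts are 0.931, 0.108 and 0.143% of annotated counts, highest in replicate 1 of C. zofingiensis. The bound was 2.57-fold without that library and 21.7-fold without C. sorokiniana replicate 3, where 3 counts are 0.1104%. The U2 entry at chr5:26949658-26949853, for the RNA that pairs with the branch point of introns, had 122, 179 and 148 counts in C. zofingiensis, against 43, 21 and 0 in C. sorokiniana, and did not pass the test (log2 fold change 1.67 ± 1.30, edgeR adjusted p = 0.276). Of 51 entries of U3 and spliceosomal U RNAs, 18 were found in both species, 33 in C. zofingiensis alone and 0 in C. sorokiniana alone. Over all 711 entries these numbers were 302, 326 and 83 in the same order. They held 6.30% ± 5.28 of annotated counts in C. zofingiensis and 1.52% ± 1.49 in C. sorokiniana, and among the 11 tested entries found in both species none was called.

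Some snoRNA entries were counted only in C. sorokiniana. SNORD33 had 0 counts in each C. zofingiensis library and 48, 44 and 24 in C. sorokiniana, at least 49.2-fold more there, or 28.4-fold without C. sorokiniana replicate 3 and 111-fold without C. zofingiensis replicate 1. The entry snoR64 had 0 counts in each C. zofingiensis library and 36, 61 and 20 in C. sorokiniana, at least 46.1-fold more (31.3-fold to 104-fold with 1 library left out, the highest again without C. zofingiensis replicate 1). SNORD14 had 4, 9 and 19 counts in C. zofingiensis, against 84, 54 and 4 in C. sorokiniana, and fell by 3.78 ± 1.12 on the log2 scale (edgeR adjusted p = 0.00164). The entry snoZ159 at chr1:8756367-8756453, the most abundant snoRNA entry of C. sorokiniana, held 0.412% ± 0.343 of annotated counts in C. zofingiensis and 1.06% ± 0.506 in C. sorokiniana (SD, n = 3 each). It did not pass the test (log2 change -1.38 ± 1.05, edgeR adjusted p = 0.276) but did with the replicate block (adjusted p = 0.0447). Its commonest sequence in both species, 14 bases long, lies inside B1, a tag that was lower in C. zofingiensis. The part of that tag in the counts of snoZ159 was not tested.

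Of 26 rRNA entries, 9 were found in both species, and the 2 tested were lower in C. zofingiensis with the same counts. The 5S entry at chr1:16432955-16433072 had 3, 4 and 2 counts in C. zofingiensis, against 14, 9 and 2 in C. sorokiniana, and fell by 3.28 ± 0.97 on the log2 scale (edgeR adjusted p = 0.00162), which was 0.0934 with the replicate block and up to 0.253 with 1 library left out. Another 5S entry, at chr5:11975553-11975670, had 17, 10 and 16 counts in C. zofingiensis and 0 in each C. sorokiniana library, and did not pass the filter. The filter is relative to library totals, which reached 106200 in C. zofingiensis and were as low as 2718 in C. sorokiniana. Smaller counts in C. sorokiniana therefore entered the test.

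The same species difference was measured in the 6 stress libraries, which share no library with the normal comparison. All 17 tags called among those listed in all 6 normal libraries had the same direction under stress, and 14 of them were called there. These tags all belong to groups A to D and overlap in sequence, so they are not 17 separate recurrences. Of 15 called patterns of counts among entries of both species, 14 could be tested under stress, and 13 had the same direction and were called. Under stress 129 of 146 tags (88.4%) and 72 of 223 entries (32.3%) were called. These fits were not limited to features of both species, so the shares are not a background for the shared ones alone. Direct tests of the difference between the conditions, on tags and entries counted in all 12 libraries, called 3 of 20 tags and 15 of 55 entries. C1, for example, fell by 2.00 on the log2 scale in normal culture and by 0.92 under stress.

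**Figure D5:**
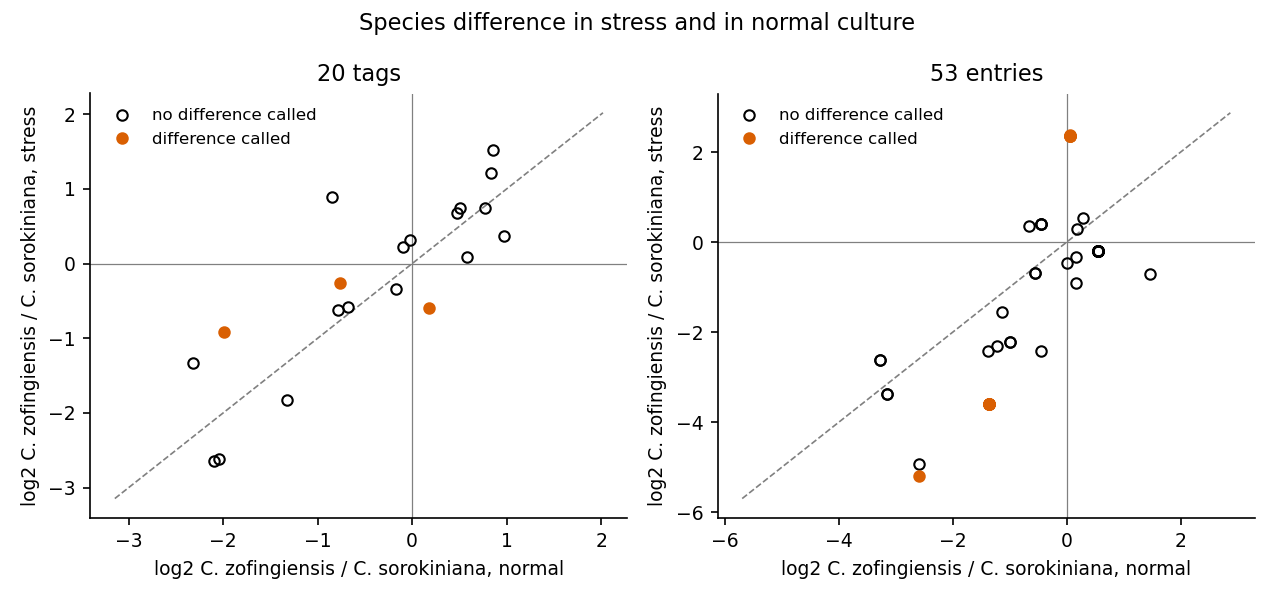
Log2 ratio of C. zofingiensis to C. sorokiniana in stress libraries (vertical axis) against the same ratio in normal libraries (horizontal axis) for 20 tags (left) and 53 entries (right) counted in all 12 libraries and tested in both conditions, with equality dashed. Filled points differ between the conditions (edgeR interaction, adjusted p below 0.05), and many entries lie on top of each other because they share counts.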

How the data were processed

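Small RNA was sequenced from 12 libraries, of which the 6 of normal culture were compared, 3 per species, grouped by their labels. The tag tables hold read counts per exact tag as the authors deposited them, 100 tags per library. The annotation sheets hold read counts per Arabidopsis entry, as deposited, and a signal in which the authors divided the count by the number of loci a read maps to, per the file headers. The submitters' processing notes name DESeq and the Arabidopsis build TAIR9. For trimming and alignment the sources used here give nothing. Coordinates are those of Arabidopsis, not of Chlorella.

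Tags were joined by exact match, and their shares are percentages of listed reads. Both tables were fitted with edgeR 4.0.16 (R 4.3.3), quasi-likelihood, on library totals after edgeR's filter on low counts, with Benjamini-Hochberg adjusted p-values over all tags or all entries. The filter works on counts relative to the library total, so a given count passes more easily in a smaller library. DESeq2 1.42.0 gave an alternative for the counts, and limma 3.58.1 on log2(signal + 1), scaled to 1000 per library, another. Shares were compared by exact permutation of the 6 libraries. Bounds for tags use the smallest listed share of the other species, and bounds for entries 3 counts per library. The tests were tried on simulated counts of independent features with 1 common dispersion. A simulated log2 change of 1 was called with the right sign for 92.0% of tags and 75% of entries. Real tags and entries share reads or sequence and vary unequally, so the simulation does not give the error rates for these data.

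The labels number the replicates but do not say that libraries of the species pair by number. The deviations of same-numbered libraries from their group means correlated at 0.240, 0.499 and 0.777 over the 27 tags of all 6 libraries. Differently numbered libraries gave -0.686 to 0.192. Many of these tags overlap in sequence, so the values cannot settle whether the libraries pair. The fit with the number as a block is an alternative to the fit without it. Tags and entries were named by rule, namely the commonest of each species, those with the largest changes and the leading entries of each class and list. The comparison, the members and the lists were chosen with earlier results of these data known.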

Additional observations from a re-analysis of the deposited data

Results flagged for a closer look

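Some species differences themselves differed between the stress and the normal libraries, tested with edgeR as the interaction of species and culture. Values are the log2 ratio of C. zofingiensis to C. sorokiniana under stress minus the same ratio in normal culture. For C1 the difference was 1.07 ± 0.23 (SE, edgeR adjusted p = 0.0100), the ratio being -0.92 under stress and -1.997 in normal culture. For A5 it was 0.51 ± 0.15 (edgeR adjusted p = 0.0343), from ratios of -0.26 under stress and -0.77 in normal culture. The tRNA entry at chr1:18387802-18387874 gave 2.31 ± 0.89 (edgeR adjusted p = 0.0359). The tRNA entries at chr1:2846536-2846608 and chr1:20412928-20413000 each gave -2.25 ± 0.64 (edgeR adjusted p = 0.00298), and their counts are nearly identical, so they are 1 observation. The entry ath-miR-5638b gave -2.78 ± 1.05 (edgeR adjusted p = 0.0359), and its commonest sequence has at most 11 bases. The stress cultures differ in both light and glucose, which cannot be told apart.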

How the results depend on the processing

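Most values of the named features kept their direction and call. The tallies that follow cover only 30 tags and the entries named by rule, and 12 groups, not all that were tested. Over the alternatives, 332 of the values for these tags, 93 for groups and 429 for entries did so. Of the rest, 1, 1 and 20 lost the call, 6 entry values gained it, and 15, 2 and 13 changed sign. The sign changed only for features that were not called. The replicate block gave 52 tags and 17 groups called, and the fit on tags of all 6 libraries 17 tags. Of the 114 tags called without the block, 49 were also called with it. Besides the calls given with the results, the block ended that of the tRNA entry at chr1:892514-892585 (edgeR adjusted p = 0.0642), and it changed no other call of a named feature. For entries, no filter gave 143 calls, entries of both species 49 and identical counts entered once 29. Leaving out 1 library gave 113 to 126 tags, 27 to 30 groups and 50 to 99 entries called, with 50 entries without C. sorokiniana replicate 1. TMM factors moved the median log2 change of tested tags to 0.73, against 0.50 on library totals, and of entries to 0.29, against 0.55.

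Differences below are C. zofingiensis minus C. sorokiniana. As shares of detected entries, tRNA differed by -0.822 and rRNA by 0.426 percentage points. Without tags joined to A1, lengths of 19 to 21 bases differed by -2.19 and first base G by -1.71 points. As numbers of distinct tags, lengths of 25 or more differed by -2.0, the mean length by -0.0133 bases, first base A by 0.667 and first base G by -1.0. With tags joined, the 10 commonest differed by 0.778 points. Leaving out 1 library, snoRNA ranged from -1.36 (without C. zofingiensis replicate 1) to 5.86 points. No other share changed sign.

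Log2 changes that turned their sign were small. With TMM factors and DESeq2 C3 was 0.19 and 0.18, D1 0.025 and 0.030, A4 0.12 and 0.092, and the 20-base variant of A1 ending in ggga 0.30 and 0.13, or 0.13 with the replicate block. With 1 library left out, C3 ranged from -0.080 to 0.042 and this variant from -0.56 to 0.41. Group D was 0.46 with TMM factors and -0.21 to 0.049 with 1 library left out. With TMM factors and the replicate block, ath-mir-5652 was -0.37 and -0.082, snoR1 -0.41 and -0.21, and the tRNA entry at chr1:18387802-18387874 -0.15 and -0.14, or -0.64 by limma on the signal. With 1 library left out these 3 ranged from -0.30 to 0.63, -0.69 to 0.72 and -0.57 to 0.45. The cause of these changes was not tested.

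The list of 100 tags limits what can be seen below about 0.1% of listed reads, and the 2718 entry counts of C. sorokiniana replicate 3 limit its entries. The floor of 3 counts covers counting error only.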
